A study of Mus musculus with 4 samples.

Results

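The mesenchyme of the submandibular gland was set against that of the parotid gland in mouse embryos of embryonic day 12. The cells were chosen by expression, from the submandibular mesenchyme library and the parotid mesenchyme library. A barcode was taken with at least 500 genes detected, at most 10% mitochondrial transcripts, at least 2 molecules of Pdgfra and Col3a1 together, and none of Epcam, Cdh5, Myod1 or Myog. This gave 3324 submandibular and 3361 parotid cells, 6685 of the 15351 barcodes in the series. The study dissected glands of ICR mice, about 10 of each kind, per the labels, and parted epithelium from mesenchyme with Dispase II. Each tissue of each gland was captured as 1 droplet library (10x Chromium) from pooled glands, with no genotype, treatment or sex given in the labels, so single embryos cannot be told apart. The stated purpose was to profile gene expression in the epithelial and mesenchymal cells of these glands.

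A salivary gland begins as an epithelial bud that grows and branches inside a condensed mesenchyme. The mesenchyme, largely of neural crest origin, secretes growth factors and lays down matrix, and its own transcription factors carry the positional identity of the pharyngeal arch it came from. In recombination experiments salivary mesenchyme is known for instructing the pattern in which epithelium branches, with Fgf10 acting on the epithelial receptor Fgfr2 as a central signal. Pdgfra encodes a receptor kinase of mesenchymal cells and Col3a1 a fibrillar collagen.

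Levels are given in CPM (counts scaled to a library total of 1000000): the molecules of a gene, told apart by random barcodes called UMIs, are summed over the cells of a library and scaled by their total. The submandibular cells held 19940999 UMIs and the parotid cells 20642769, with medians of 5385 and 5598 UMIs and of 2201 and 2198 genes per cell. Depth was therefore close to equal on the sides compared. Each side had 1 library, so no difference below has a test or a replicate check. The range printed after a ratio is an exact 95% conditional binomial interval, and like the Poisson intervals of levels in the plots it covers counting error only. A gene was called higher on 1 side with at least 50 CPM there and a ratio of at least 2.

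The genes that selected the cells are given as a description only. Pdgfra stood at 190 CPM in the submandibular and 97.9 CPM in the parotid cells, and Col3a1 at 919 and 907 CPM. Exactly at the threshold of 2 UMIs lay 437 submandibular and 419 parotid cells, and 422 and 307 barcodes with 1 UMI lay just outside it. The 8 mesenchymal markers that took no part in the selection were present on each side, none at 0. Their summed level was 2826 CPM in the submandibular and 4056 CPM in the parotid cells. Prrx1, a homeobox gene of craniofacial and limb mesenchyme, was at 479 and 447 CPM, and Twist1, a neural crest bHLH factor, at 60.2 and 78.1 CPM.

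The libraries differed in the sex of their cells. Xist, which is transcribed from the inactive X of females, had a UMI in 58.1% of submandibular and 1.49% of parotid cells, and genes of the Y chromosome in 25.7% and 58.8%. Sex and gland therefore cannot be told apart in the full comparison, and a comparison among Y-positive, Xist-negative cells is given beside the counts. A total of 34 barcodes occurred in both mesenchyme libraries, 20 of them among the cells taken on each side. With all such barcodes left out, 129 and 119 genes were called.

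Traces of other cell classes also differed. Erythroid markers, mostly haemoglobin, summed to 7913 CPM in the submandibular and 2643 CPM in the parotid cells, and 6 haemoglobin genes, all called higher in submandibular cells, were set aside from all rankings though counted among the called genes below. Endothelial markers summed to 40.2 and 17.1 CPM, and immune markers to 18 and 1.89 CPM with C1qa, Cx3cr1 and Tyrobp at 0 in parotid cells. Ptprc, of the same immune list, went the other way, at 0.351 against 1.40 CPM. Glial markers summed to 28.8 and 7.02 CPM, chondrogenic markers to 66.5 and 21.3 CPM, and epithelial markers to 8.22 and 2.81 CPM. Muscle markers summed to 37.1 and 49.3 CPM. Epcam, Cdh5, Myod1 and Myog belong to these lists and were at 0 because the selection of cells required it. Neuronal markers, at 25.3 and 134 CPM, are returned to with Tubb3 below. Among the 20 immediate early and stress genes, 2 were called higher in parotid cells, among them Hspa1a, a heat-shock gene, at 8.42 and 67.2 CPM. The part of these traces in the results was not tested.

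Most genes stood at about the same level in the mesenchyme of the 2 glands. Of 3256 genes that reached 50 CPM on at least 1 side, 83.4% lay within 1.5-fold. The submandibular cells had 127 genes called higher, 3.9% of those tested, and the parotid cells 119, or 3.65%. Among Y-positive, Xist-negative cells, 765 submandibular and 1971 parotid, the counts were 114 and 123. Of these, 107 and 109 were also among the genes called in all cells. The rule of 50 CPM in the higher library lets a gene pass through the side where it is high, so lists are also described over the 2956 genes with a mean of at least 50 CPM, of which 5.48% were called in either direction.

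The classes of gene product held different shares of called genes, given here as counts without a test. By that mean rule 26 of 68 transcription factors (38.2%), 14 of 30 secreted factors (46.7%) and 7 of 19 adhesion and guidance receptors (36.8%) were called. Matrix genes followed with 12 of 54 (22.2%), and signalling receptors with 2 of 19 (10.5%). Genes in none of these lists were called at 3.65%. The median absolute log2 ratio was 0.60 for transcription factors, 0.93 for secreted factors, 0.77 for adhesion and guidance receptors, 0.55 for receptors and 0.45 for matrix genes, against 0.21 over all genes. Each class held genes called in either direction, and the signed medians were −0.23, −0.02, 0.25, −0.10 and −0.05 in the same order, against −0.04 over all genes.

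**Figure D1:**
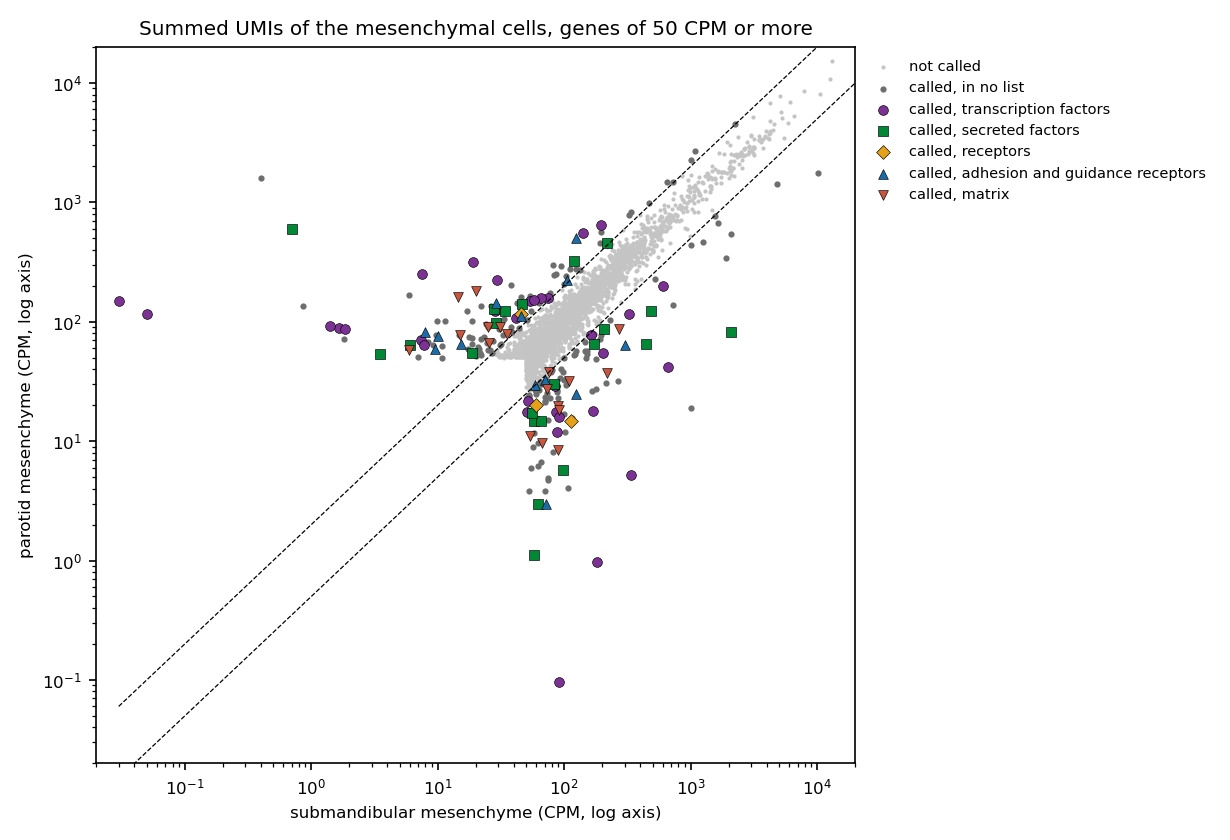
Level of each gene that reached 50 CPM in at least 1 library, with submandibular mesenchyme on the horizontal and parotid mesenchyme on the vertical axis (CPM, log axes; a gene at 0 is drawn at the left edge of the scale). Dashed lines mark 2-fold; most of the 3256 genes lie between them, and the called genes outside them are marked by class, with the 6 haemoglobin genes and genes not reported here left out.

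The sequences that follow show the stretch before the start of 6 called genes from different classes, 3 with a searched motif and 3 without, chosen after their values were seen so that the promoters of genes the results turn on can be read. The sequences are from RefSeq on GRCm38.p6, written along the strand of the gene, and hold the 250 bases before its RefSeq start. Gene coordinates elsewhere are GENCODE's, whose starts can differ. Where the GENCODE gene begins earlier, the bases inside it are left out: 99 for Lhx8, 94 for Gsc and 32 for Nrp2. Capitals mark a motif match. Lhx8 (chr3:154330660-154330810, minus strand) and Meox2 (chr12:37108290-37108539, plus strand) were higher in parotid cells. Gsc (chr12:104473331-104473486, minus strand), Nrp2 (chr1:62703067-62703284, plus strand), Tnc (chr4:64047016-64047265, minus strand) and Aldh1a2 (chr9:71215539-71215788, plus strand), the gene of the enzyme that makes retinoic acid, were higher in submandibular cells.
Lhx8: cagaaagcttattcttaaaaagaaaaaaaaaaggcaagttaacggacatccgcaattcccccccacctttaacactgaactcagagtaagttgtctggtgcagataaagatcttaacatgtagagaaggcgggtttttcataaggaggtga
Meox2: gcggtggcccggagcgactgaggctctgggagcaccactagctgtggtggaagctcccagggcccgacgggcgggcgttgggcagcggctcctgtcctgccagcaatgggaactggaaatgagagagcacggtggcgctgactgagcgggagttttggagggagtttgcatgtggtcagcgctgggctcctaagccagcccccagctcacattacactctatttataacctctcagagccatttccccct
Gsc: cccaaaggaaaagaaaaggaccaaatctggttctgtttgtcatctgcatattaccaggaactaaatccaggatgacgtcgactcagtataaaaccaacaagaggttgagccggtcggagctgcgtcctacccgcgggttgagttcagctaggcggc
Nrp2: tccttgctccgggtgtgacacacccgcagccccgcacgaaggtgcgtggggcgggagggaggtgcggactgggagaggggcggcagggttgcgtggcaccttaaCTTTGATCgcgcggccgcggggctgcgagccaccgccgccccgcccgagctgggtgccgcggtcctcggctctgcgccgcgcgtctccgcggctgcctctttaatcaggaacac
Tnc: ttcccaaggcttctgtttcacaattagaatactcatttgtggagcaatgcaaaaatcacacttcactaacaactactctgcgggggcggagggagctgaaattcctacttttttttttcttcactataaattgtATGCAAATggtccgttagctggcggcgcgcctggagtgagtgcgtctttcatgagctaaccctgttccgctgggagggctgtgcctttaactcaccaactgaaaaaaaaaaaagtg
Aldh1a2: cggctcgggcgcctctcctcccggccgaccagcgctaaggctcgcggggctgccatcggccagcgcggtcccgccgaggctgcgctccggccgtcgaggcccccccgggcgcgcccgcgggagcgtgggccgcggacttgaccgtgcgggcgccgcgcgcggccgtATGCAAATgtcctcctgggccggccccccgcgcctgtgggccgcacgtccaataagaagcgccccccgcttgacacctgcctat

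The searched motifs were those of factor families with members called in these cells, and each was looked for on both strands of the 300 bases around the start of 27025 genes (250 before and 50 after it). The POU octamer ATGCAAAT was found in Tnc, beginning 116 bases before the RefSeq start, and in Aldh1a2, beginning 84 bases before it. It occurred in 3 of 88 promoters of genes higher in submandibular cells (3.41%; Asb4 is the other), in 1 of 87 of those higher in parotid cells (1.15%) and in 1.75% of all promoters, or 1.19% of the 2519 promoters of genes that reached 50 CPM. The LEF/TCF-type motif CTTTGATC, found in Nrp2 beginning 146 bases before the start, occurred in 1 submandibular promoter (1.14%), in 0 of the 87 parotid ones and in 0.936% of all, or 0.834% of those reaching 50 CPM. The homeobox core TAATTA occurred in 2 promoters on each side (2.27% and 2.30%), close to the 2.02% of genes reaching 50 CPM, and in 5.31% of all. The Nr5a-type motif TCAAGGTCA and the T-box-type motif AGGTGTGA were found in 0 of the promoters of each called set and in 0.407% and 1.27% of all, or 0.318% and 0.476% of those reaching 50 CPM. With 3 or fewer matches per set, these counts describe the letters and nothing more. No searched motif contains another.

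Transcription factors, which set the identity of cells, differed in both directions. Of 659 symbols searched, 82 reached 50 CPM. Among these, 16 were called higher in submandibular cells and 18 in parotid cells, where 3.9% and 3.65% of all genes were. Peg3, an imprinted zinc-finger gene (ENSMUSG00000002265, GRCm38 chromosome 7, 6703892 to 6730431, minus strand), stood at 667 CPM in the submandibular and 41.9 CPM in the parotid cells (15.9-fold, 14.9 to 17.1). Gsc, the goosecoid homeobox gene (ENSMUSG00000021095, chromosome 12, 104471209 to 104473330, minus strand), was at 168 against 17.9 CPM (9.40-fold, 8.44 to 10.5). Nr5a2, Maf and Plagl1 had larger ratios than either on the same side.

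Further factors higher in submandibular cells spanned several families. Nfe2l2, which encodes the oxidative stress regulator NRF2, was at 88.2 against 12 CPM (7.34-fold, 6.42 to 8.42). Tshz1, a teashirt zinc-finger gene, was at 91.1 against 15.8 CPM (5.75-fold). Pitx1, a homeobox gene of the mandibular arch and hindlimb, was abundant on each side but higher in submandibular cells, at 600 against 198 CPM (3.03-fold, 2.93 to 3.14). Hes1, a Notch-responsive repressor, was at 84.4 against 29.1 CPM (2.90-fold). Hic1, a transcriptional repressor, was at 328 against 115 CPM (2.85-fold). Creb3l1 (50.3 against 17.5 CPM), Gli3, a mediator of hedgehog signalling (51.3 against 21.8 CPM), and Ldb2, a cofactor of LIM-domain proteins (163 against 76.8 CPM, 2.12-fold, 2 to 2.25), lay close to a limit of the rule. These last 3 lost their call in some alternatives.

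On the parotid side Pou3f3, Pax1, Msx1, Tbx15, Vgll3 and Tbx18 had larger ratios than the genes given here. Next came Lhx8, a LIM homeobox gene active in tooth and palate mesenchyme (ENSMUSG00000096225, chromosome 3, 154306294 to 154330659, minus strand), which stood at 19 CPM in submandibular and 314 CPM in parotid cells (16.5-fold, 14.9 to 18.4). Shox2, a homeobox gene of palate and limb (ENSMUSG00000027833, chromosome 3, 66971727 to 66981771, minus strand), was at 29.3 against 223 CPM (7.60-fold, 6.97 to 8.30). Trps1, a GATA-type repressor of skeletal development, was at 7.77 against 63.8 CPM (8.21-fold, 6.95 to 9.77). Each was thus under the minimum of 50 CPM in submandibular cells.

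Several others were present on each side and a few fold higher in parotid cells. Zfhx4, a large zinc-finger homeobox gene, was at 28.2 against 124 CPM (4.38-fold). Osr2, which acts in palate growth, was at 142 against 558 CPM (3.93-fold, 3.77 to 4.09), and Ebf1, a factor of B cells that is also expressed in mesenchyme, at 197 against 645 CPM (3.28-fold, 3.16 to 3.40). Dlx5, a homeobox gene of the ventral pharyngeal arches, was at 53.4 against 149 CPM (2.80-fold). Bcl11a, a zinc-finger repressor, was at 57.3 against 152 CPM (2.65-fold). Klf2 (41.6 against 108 CPM), Tbx3 (65.9 against 157 CPM) and Twist2, the dermal relative of Twist1 (75.0 against 157 CPM, 2.1-fold, 1.98 to 2.23), lay nearer the 2-fold limit.

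**Figure D2:**
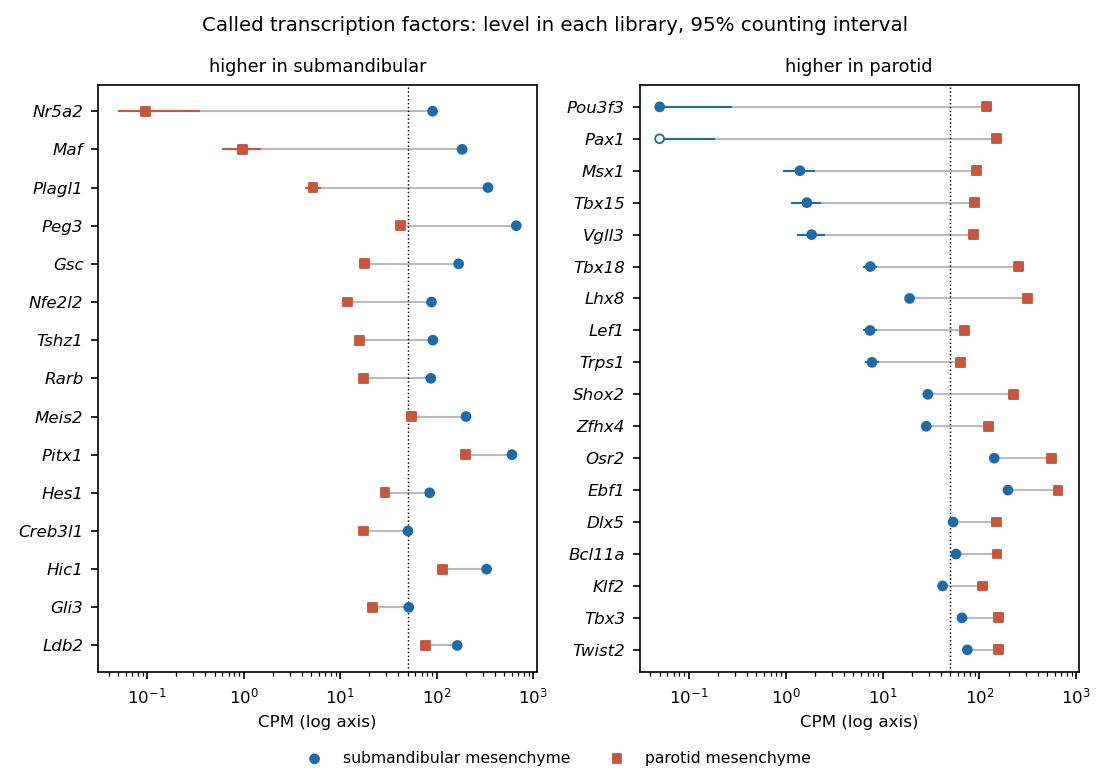
Level in CPM (log axis) of the called transcription factors reported here, higher in submandibular mesenchyme or higher in parotid mesenchyme, ordered by ratio, with circles for the submandibular and squares for the parotid library and bars for the 95% Poisson interval. The dotted line marks 50 CPM; the open circle for Pax1 stands for 0 UMIs and is drawn at the edge of the scale, and intervals that reach below that edge are clipped.

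Some related genes differed in opposite directions. Meox1 and Meox2 encode 2 closely related homeobox proteins of the somites that the lists did not cover, and both lay among the 6 leading genes outside them. Meox1 (ENSMUSG00000001493, chromosome 11, 101877510 to 101894374, minus strand) stood at 74.1 CPM in submandibular and 4.94 CPM in parotid cells (15-fold, 12.3 to 18.5). Meox2 (ENSMUSG00000036144, chromosome 12, 37108540 to 37179534, plus strand) stood at 5.92 and 168 CPM, 28.4-fold higher in parotid cells (23.6 to 34.4). Osr1, the relative of Osr2, was at 444 and 300 CPM and was not called. Among early B-cell factor genes Ebf1 was higher in parotid cells, while Ebf3, at 40.1 against 1.84 CPM, and Ebf2, at 33.3 against 14.1 CPM, were higher in submandibular cells but under the minimum of 50 CPM.

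Other factors were not called. Sox11 stood at 364 and 373 CPM (ratio 0.975, 0.944 to 1.01), and its relative Sox4 at 376 and 272 CPM. Nr2f2, an orphan nuclear receptor of mesenchyme and veins, was at 362 and 302 CPM, and Nfib at 299 and 375 CPM. Barx1, a homeobox gene of tooth and stomach mesenchyme, was at 364 and 228 CPM (1.60-fold, 1.54 to 1.66). Of the 39 Hox genes in the files 14 had a UMI and 0 reached 50 CPM, and of the 40 Nkx and related genes 22 had a UMI and 0 reached 50 CPM.

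Below 50 CPM further factors differed, here named after their values were seen. With a minimum of 20 CPM, 34 and 28 of 162 transcription factors passed 2-fold, 18 and 10 of them between 20 and 50 CPM. For all genes only the counts at this minimum are given, with the processing settings below. Without the share of all genes, these counts are a description only. Hand2, a bHLH factor of the distal mandibular arch, was at 22.9 CPM in submandibular and 3.29 CPM in parotid cells (6.96-fold, 5.38 to 9.11). Tcf15, a bHLH factor of the somites, was at 36.1 against 7.56 CPM. On the parotid side Irx3 was at 2.36 against 24.6 CPM and Irx5 at 1.00 against 22.5 CPM, and Eya1, a transcriptional coactivator, was at 4.16 against 25.8 CPM.

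Secreted factors include signals that mesenchyme sends to the bud. The list also holds membrane-bound proteins such as the ephrins and Bambi. Of 364 symbols, 41 reached 50 CPM. Among these, 12 were called higher in submandibular and 10 in parotid cells, where 3.9% and 3.65% of all genes were. Igf1, the insulin-like growth factor (ENSMUSG00000020053, chromosome 10, 87858265 to 87937042, plus strand), stood at 446 CPM in submandibular and 65.3 CPM in parotid cells (6.83-fold, 6.45 to 7.24). Fgf10 (ENSMUSG00000021732, chromosome 13, 118669791 to 118792115, plus strand) was at 65.9 against 14.6 CPM (4.51-fold, 3.97 to 5.13). Its relative Fgf7, which acts on the same receptor, was at 30.3 against 2.81 CPM (10.8-fold, 8.23 to 14.4) but under the minimum. No other of the 22 FGF genes reached 50 CPM.

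The called genes of the insulin-like growth factor group lay on the submandibular side. Of its 17 genes 7 reached 50 CPM, 4 were called higher in submandibular cells, where 3.9% of all genes were, and 0 in parotid cells. With Igf1 these were Igf2, at 171 against 64.8 CPM (2.64-fold, 2.48 to 2.82), and the binding protein genes Igfbp5 and Igfbp7, given below by their shares of cells. By the mean rule 3 of 6 were called, all higher in submandibular cells, against 5.48% of all genes in either direction. Igf2r, whose receptor clears Igf2, went the same way, at 60.2 against 20.0 CPM (3.02-fold, 2.70 to 3.38).

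WNT signals and their antagonists differed in both directions. Wnt5a, a ligand of the non-canonical pathway (ENSMUSG00000021994, chromosome 14, 28504750 to 28527448, plus strand), was the only one of 19 WNT genes to reach 50 CPM. It stood at 6.07 CPM in submandibular and 63.9 CPM in parotid cells (10.5-fold, 8.74 to 12.8). Sfrp1, a secreted antagonist that binds WNT proteins, was at 487 against 123 CPM (3.96-fold, 3.79 to 4.14). Sostdc1, an antagonist of BMP and WNT signals, was higher in parotid cells at 28.1 against 129 CPM (4.59-fold, 4.19 to 5.03), as was Dkk2, an antagonist at the WNT coreceptor, at 46.8 against 142 CPM (3.04-fold). Sfrp2 was at 483 and 410 CPM and was not called. Rspo2, a WNT enhancer named after its values were seen, was at 6.07 against 27.7 CPM.

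Among TGF-beta family signals, Tgfb2 stood at 207 against 87.1 CPM (2.38-fold, 2.25 to 2.51) and Bambi, a decoy receptor listed with the antagonists, at 55.7 against 17.3 CPM (3.22-fold). Fstl1, a follistatin-like secreted protein, was higher in parotid cells at 218 against 457 CPM (2.1-fold, 2.02 to 2.18). Below the minimum, and named after their values were seen, Bmp7 was at 24.2 against 2.66 CPM and Gdf5 at 30.2 against 4.70 CPM, while Bmp2 was at 11.3 against 42.9 CPM and the activin antagonist Fst at 2.21 against 23.4 CPM.

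Guidance cues and other ligands completed the list. Slit2, a repellent ligand of Robo receptors, was at 28.8 against 96.7 CPM (3.36-fold), and Sema5a, a semaphorin, at 18.7 against 54.4 CPM (2.91-fold). The ephrins split, with Efnb2, the ligand of EphB receptors, at 57.8 against 14.6 CPM (3.95-fold, 3.48 to 4.50) and Efna5 at 34.3 against 123 CPM (3.57-fold, 3.28 to 3.90). Cyr61, a matricellular signal, was at 119 against 321 CPM (2.70-fold), and Angptl1 at 82.4 against 29.8 CPM (2.76-fold). The heparin-binding growth factors Mdk (2621 and 2818 CPM) and Ptn (1071 and 1161 CPM) were close. Cxcl12, a chemokine, was at 300 and 436 CPM.

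**Figure D3:**
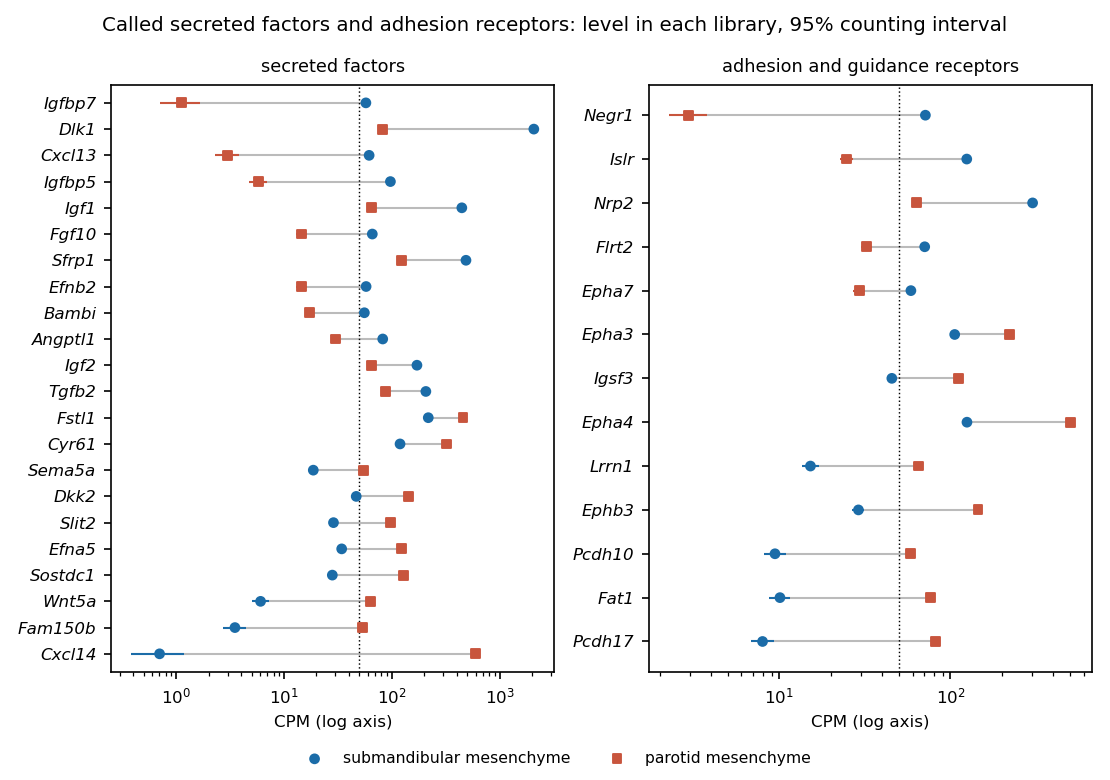
Level in CPM (log axis) of the 22 called secreted factors and the 13 called adhesion and guidance receptors, ordered from higher in submandibular to higher in parotid mesenchyme, with circles for the submandibular and squares for the parotid library and bars for the 95% Poisson interval. The dotted line marks 50 CPM; Igf1, at 446 and 65.3 CPM, and Epha4, at 125 and 502 CPM, show wide gaps in opposite directions.

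Receptors are the proteins that read signals. Of 382 symbols 23 reached 50 CPM, and 2 were called higher in submandibular and 1 in parotid cells, where 3.9% and 3.65% of all genes were. Ntrk2, the receptor of brain-derived neurotrophic factor (ENSMUSG00000055254, chromosome 13, 58806569 to 59133970, plus strand), stood at 113 CPM in submandibular and 14.7 CPM in parotid cells (7.70-fold, 6.83 to 8.71). Igf2r was the other. S1pr3, a receptor of sphingosine-1-phosphate (ENSMUSG00000067586, chromosome 13, 51408639 to 51422797, plus strand), was at 45.5 against 117 CPM (2.57-fold, 2.38 to 2.77). The difference in share of calls between receptors and secreted factors was not tested.

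Among receptors that were not called, Fgfr1 was at 117 and 111 CPM (ratio 1.06, 0.998 to 1.12), Smo, the hedgehog transducer, at 70.9 and 66.9 CPM, and the hedgehog coreceptor Gas1 at 320 and 390 CPM. Bmpr1a was at 57.5 and 62.9 CPM, Lpar1 at 326 and 317 CPM, Notch2 at 47.7 and 68.4 CPM, and Ptk7, a WNT coreceptor, at 59.0 and 88.2 CPM. Below the minimum, and named after their values were seen, Agtr2, an angiotensin receptor, was at 44.7 against 5.67 CPM, Fzd7, a WNT receptor, at 32.6 against 9.54 CPM, and Avpr1a, a vasopressin receptor, at 2.06 against 29.2 CPM.

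Adhesion and guidance receptors differed in both directions. The called protocadherins and 3 of the 4 called Eph receptors were higher in parotid cells. Of 267 symbols 27 reached 50 CPM. Among these, 5 were called higher in submandibular and 8 in parotid cells, where 3.9% and 3.65% of all genes were. Epha4 (ENSMUSG00000026235, chromosome 1, 77367185 to 77515088, minus strand), a receptor of ephrins, stood at 125 CPM in submandibular and 502 CPM in parotid cells (4.02-fold, 3.85 to 4.21). Ephb3 was at 29.0 against 145 CPM (5.00-fold, 4.57 to 5.47) and Epha3 at 106 against 222 CPM (2.09-fold, 1.99 to 2.21). Epha7, the only Eph receptor called the other way, was at 58.7 against 29.4 CPM, exactly at the limit (2-fold, 1.81 to 2.21), and lost its call in most alternatives. Ephb3, the receptor, and Efnb2, a ligand of its class, were thus higher in different glands, and Epha4 and Efna5 in the same one.

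The protocadherin genes Pcdh17 (7.97 against 81.7 CPM, 10.2-fold, 8.70 to 12.1) and Pcdh10 (9.43 against 58.7 CPM, 6.23-fold) were higher in parotid cells, as was the giant cadherin gene Fat1 (10.1 against 76.2 CPM, 7.56-fold). These 3 genes reached 50 CPM only through parotid cells. By the mean rule 0 of 3 cadherin and protocadherin genes were called, against 5.48% of all genes. Lrrn1 and Igsf3, genes of leucine-rich repeat and immunoglobulin-type surface proteins, were at 15.2 against 65.1 and 45.4 against 111 CPM. On the submandibular side Nrp2, a coreceptor of semaphorins and VEGF (ENSMUSG00000025969, chromosome 1, 62703285 to 62818695, plus strand), stood at 302 against 63.3 CPM (4.77-fold, 4.49 to 5.07). Islr, a marker of mesenchymal stromal cells, was at 125 against 24.8 CPM (5.03-fold), and Flrt2 at 70.7 against 32.2 CPM (2.19-fold, 2 to 2.41). The mesenchymal cadherin gene Cdh11 was at 174 and 146 CPM, and 0 of the 3 integrins that reached 50 CPM were called. Below the minimum, Unc5c, a netrin receptor, was at 30.7 against 1.89 CPM.

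Matrix genes were called in both directions. Of 457 symbols 65 reached 50 CPM. Among these, 10 were called higher in submandibular and 8 in parotid cells, where 3.9% and 3.65% of all genes were. Lamb1, a laminin chain (ENSMUSG00000002900, chromosome 12, 31265234 to 31329644, plus strand), stood at 219 against 37.5 CPM (5.85-fold, 5.42 to 6.32), and Nid2, a nidogen that links laminin to collagen, at 53.7 against 11.1 CPM (4.84-fold, 4.19 to 5.6). Nid1 was at 34.2 against 10.4 CPM, under the minimum. Fn1, the fibronectin gene, needed for cleft formation in branching salivary buds, was at 272 against 87.5 CPM (3.10-fold, 2.94 to 3.28). Tnc, the tenascin gene, was at 66.4 against 9.64 CPM (6.89-fold, 5.93 to 8.03), and Cthrc1, a secreted collagen triple-helix repeat protein, at 88.7 against 8.43 CPM (10.5-fold, 9 to 12.4).

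Matrix turnover genes called here were all on the same side: of 13 proteases and inhibitors that reached 50 CPM, 3 were called higher in submandibular cells, where 3.9% of all genes were, and 0 in parotid cells. By the mean rule 3 of 12 were called, against 5.48% of all genes. Serpinh1, the most abundant gene of this family, was not called and lay the other way, at 846 against 1651 CPM. The called ones were Adamts1 (108 against 32.0 CPM), the metalloproteinase inhibitor gene Timp3 (73.7 against 27.1 CPM) and Plat, the tissue plasminogen activator gene, at the limit of the rule (76.0 against 38.0 CPM). Ctsk, the cysteine protease cathepsin K, counted with another family, was at 90.8 against 18.2 CPM (4.99-fold, 4.46 to 5.59). Under the minimum, and named after their values were seen, Fap, a stromal surface protease, was at 40.9 against 2.18 CPM and Adam23 at 43.8 against 2.23 CPM.

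The called genes of elastic fibres were higher in parotid cells. Of 12 that reached 50 CPM, 4 were called higher in parotid and 0 in submandibular cells, and by the mean rule 2 of 9 were called, where 3.65% of all genes were called higher in parotid cells and 5.48% by the mean rule. Lox, the enzyme that crosslinks elastin and collagen, stood at 15.1 CPM in submandibular and 77.1 CPM in parotid cells (5.11-fold, 4.51 to 5.80). The fibulin genes Fbln2 (25.1 against 90.9 CPM, 3.63-fold), Efemp1 (30.8 against 90.9 CPM, 2.95-fold) and Fbln5 (25.6 against 66.3 CPM, 2.59-fold) were the others. Smoc2, a matricellular protein gene (ENSMUSG00000023886, chromosome 17, 14279506 to 14404790, plus strand), was at 14.3 against 160 CPM (11.2-fold, 9.90 to 12.6), and Nell2, a secreted glycoprotein gene, at 5.92 against 58.1 CPM (9.82-fold, 8.13 to 12).

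Proteoglycans and collagens showed smaller shifts around 1 large one. Kera, the keratocan gene of small leucine-rich proteoglycans (ENSMUSG00000019932, chromosome 10, 97606879 to 97613692, plus strand), was at 20.2 against 182 CPM (9.03-fold, 8.14 to 10.0). Its relatives Lum (398 against 783 CPM, 1.97-fold, 1.91 to 2.02) and Dcn (293 against 582 CPM, 1.99-fold, 1.93 to 2.05) fell just short of 2-fold, as did the fibrillar collagen gene Col1a1 (223 against 445 CPM). Serpinh1, the collagen chaperone, was at 846 against 1651 CPM (1.95-fold). Chains of collagen VI, which assemble into 1 protein, did not move together: Col6a3 was at 88.7 against 19.9 CPM (4.47-fold higher in submandibular cells, 4.01 to 4.99), Col6a2 at 35.6 against 79.3 CPM (2.23-fold higher in parotid cells, 2.04 to 2.44), and Col6a1 at 72.7 and 102 CPM. Sparc, at 314 and 379 CPM, and Vcan, at 89.0 and 52.2 CPM, were not called.

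**Figure D4:**
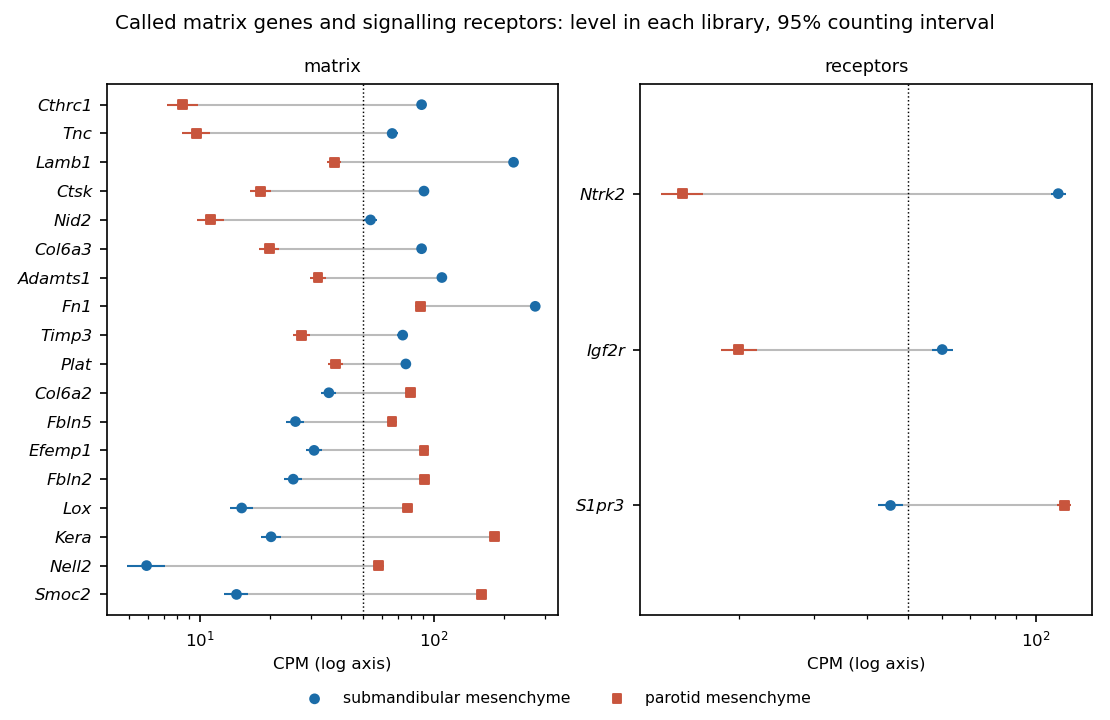
Level in CPM (log axis) of the 18 called matrix genes and the 3 called signalling receptors, ordered from higher in submandibular to higher in parotid mesenchyme, with circles for the submandibular and squares for the parotid library and bars for the 95% Poisson interval. The dotted line marks 50 CPM; Lamb1 and Fn1 have the highest submandibular levels of the matrix panel and Kera and Smoc2 the highest parotid ones.

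Outside these lists Gpm6b and Asb4 had larger submandibular ratios than the genes given here. Beside Meox1 these were Fam159a (74.4 against 4.75 CPM, 15.7-fold, 12.8 to 19.4), Phlda2, an imprinted growth regulator (53.2 against 3.83 CPM, 13.9-fold), and Syndig1 (81.1 against 8.04 CPM). Rarres2, which encodes the chemoattractant chemerin, was at 62.3 against 6.25 CPM (9.97-fold, 8.31 to 12), and Pkdcc, a secreted tyrosine kinase of skeletal development, at 65.7 against 6.69 CPM. On the parotid side Pantr1, Rprm, Chodl and Meox2 had larger ratios than Lmcd1, a LIM-domain cofactor (11.4 against 102 CPM, 8.98-fold), and Lix1 (9.68 against 77.8 CPM, 8.04-fold). Tbx3os1, a noncoding gene antisense to the neighbourhood of Tbx3, was at 9.88 against 101 CPM, and since the use of strand in counting is not given in the sources used here, its reads and those of Tbx3 may not be separate. Rtn1, a reticulon gene, was at 7.02 against 50.5 CPM.

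Tubb3, a tubulin gene typical of neurons, was at 17.1 against 123 CPM (7.23-fold, 6.45 to 8.11). It made up most of the 8-gene neuronal list, whose gene Phox2a was at 0 in parotid cells and whose other members stayed at 7.31 CPM or less. Tubb3 is itself one of the markers of other classes. Without barcodes that held such markers, its log2 ratio was −2.17 in place of −2.85 and its parotid level no longer reached 50 CPM. Leaving out barcodes by a list that holds Tubb3 can lower its level by itself, so the part of other cells was not tested.

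The share of cells with a UMI shows how widely a gene was spread. Each cell was thinned to 2000 UMIs, with 0 cells too shallow for it on either side, and the share was set beside the share that an even spread of the same molecules would give. Erythroid barcodes of the same library, which should lack these genes, give the level of free RNA: 97 submandibular and 68 parotid barcodes were thinned likewise, from medians of 17009 and 16881 UMIs, and a count of 0 there allows up to 3.09% and 4.41%. Lhx8 had a UMI in 2.77% of submandibular and 41.2% of parotid cells (8.12% and 70.2% unthinned), and in 1.03% and 2.94% of erythroid barcodes. Its submandibular share lay near that of the erythroid barcodes, its parotid share far above. Igf1 had a UMI in 50.8% of submandibular and 10.2% of parotid cells (75.1% and 22.8% unthinned), against 0 and 1.47% of erythroid barcodes. Peg3 was found in 70.2% and 6.90% (92.1% and 20.5% unthinned), against 5.15% and 0. Pitx1 was found in 67.8% and 27.3% (92.4% and 44.7% unthinned), and in 0 erythroid barcodes on each side.

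How evenly a gene was spread varied from gene to gene. Zfhx4 and Wnt5a, higher in parotid cells, reached 0.992 and 0.994 of the even share there, as did Shox2 with 0.943 and Pou3f3 with 0.975. Other parotid genes were concentrated in fewer cells. Meox2 had a UMI in 21.2% of parotid cells where an even spread would give 29.7% (0.714 of it), Ebf1 in 53.9% for 76.0%, Tbx18, a T-box gene, in 29.0% for 42.9%, Epha3 in 25.5% for 39.0%, and Pax1 in 16.2% for 24.6%. Cxcl14, a chemokine gene, was in 47.1% for 70.4%. In submandibular cells Lum (35.2% for 53.2%), which was higher in parotid cells, Ebf1 (25% for 32.7%) and Hes1 (11.8% for 15.4%) lay well below the even share. Igfbp5 (14.5% for 17.8%, 0.815 of it) also lay below the even share, and Igfbp7 (11.5% for 12.8%, 0.894 of it) lay nearer. Lum was also uneven in parotid cells, at 66.2% for 81.0%.

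**Figure D5:**
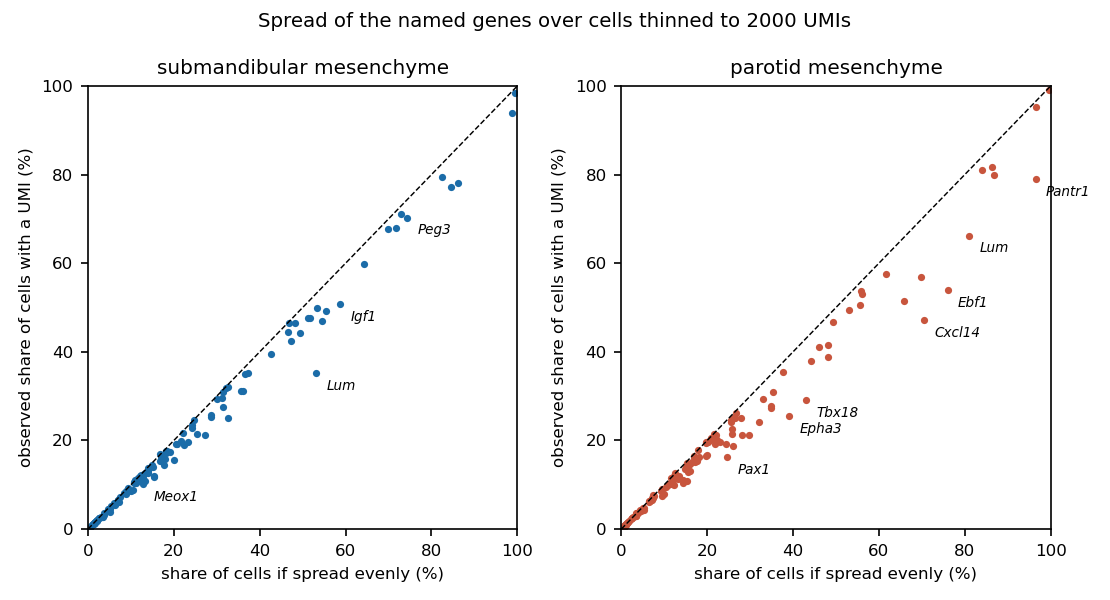
Share of cells with a UMI of each named gene after thinning to 2000 UMIs (vertical axis, %) against the share expected if the same molecules were spread evenly over the cells (horizontal axis, %), with 1 point per gene and 1 panel per library. Points on the dashed line are evenly spread; Lum in submandibular cells and Cxcl14 and Ebf1 in parotid cells lie well below it.

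Which of the parotid genes occurred in the same cells was described by pairs. The number of thinned cells with a UMI of both was divided by the number expected if the genes were independent. This was done for 496 pairs from a part of the named genes only, each pair expected in at least 20 cells. All pairs come from 1 library at equal depth, so the ratios are a description without a test, and their median was 1.02. Meox2 was rarely found with Lix1 (20 cells where 91.9 were expected, 0.218), Lef1, a WNT effector (26 for 86.1, 0.302), Twist2 (47 for 151, 0.312) or Tbx15 (41 for 115, 0.358). It was found more often with Dlx5 (234 for 161, 1.45) and Efna5 (225 for 143, 1.57). Vgll3 with Tbx15 (151 for 71.0, 2.13) and Twist2 with Lix1 (183 for 91.5, 2) were the reverse case. Twist2 thus met Lix1 in more cells, and Meox2 in fewer, than independence would give.

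In submandibular cells 528 pairs, also from a part of the named genes, kept closer to independence, from 0.397 to 1.61 with a median of 1.03. The lowest ratios were those of Hes1 with Cxcl13, a chemokine (17 cells for 42.8), and with Fgf10 (26 for 49.4, 0.526). Fgf10 and Cxcl13 were found together more often than that (66 for 45.5, 1.45), as were Gpm6b and Cxcl13 (111 for 69.2, 1.61) and Meis2 and Meox1 (135 for 93.3, 1.45).

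The same contrast of glands was made in the epithelium. The epithelial cells, 3334 submandibular and 1221 parotid, come from the other 2 libraries, and 59 of 3015 genes (1.96%) were called higher in submandibular and 73 (2.42%) in parotid epithelium. Of the 246 genes called in mesenchyme 20 were called in epithelium too (8.13% of the mesenchymal and 15.2% of the epithelial calls), while 167 were under 50 CPM in both epithelia. Of the 20, 16 had the same direction. Epha4 stood at 48.7 and 111 CPM in the epithelia, Smoc2 at 22.3 and 67.3 CPM, Cyr61 at 43.1 and 115 CPM, Sfrp1 at 151 and 74.6 CPM and Igf2r at 56.1 and 25.4 CPM, each with the direction it had in mesenchyme. The other 4 had opposite directions. Xist went the opposite way too, at 257 and 511 CPM in the epithelia, so the sexes were mixed differently in the epithelial libraries.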

How the data were processed

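The files hold whole-number UMI counts per gene and barcode, which the authors deposited without normalization. Reads had been processed with Cell Ranger 2.1.1 against mm10, per the submitters' processing notes. How strand and reads matching several genes were treated is not given in the sources used here.

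Member cells were taken as described above, their counts summed per library and divided by the library's total (Python 3.11.15, numpy 2.4.6, scipy 1.17.1, pandas 2.3.3). A gene with 0 UMIs on a side was set to 3 UMIs there for its ratio. With 1 library per group, no test was made. No doublet caller was run, and 1 alternative leaves out the 5% of cells with the most UMIs. TMM factors came from edgeR 4.0.16 (R 4.3.3). The code was tested on simulated counts.

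The members, the lists (transcription factors, secreted factors, receptors, adhesion and guidance receptors, matrix) and the rules were chosen with earlier results of these data known. The rule named the 8 called genes of each list with the largest ratio each way, outside a fixed set of leading genes that are named only for further values, the leading members of each family, and the 6 leading genes each way outside the lists. It left out haemoglobin, mitochondrial, ribosomal, sex-linked and immediate early genes, and genes at a level more than 10 times lower than in another cell class. Of the 27998 genes in the files, 27645 were matched by Ensembl identifier to GENCODE coordinates on GRCm38. The sex-restricted and shared-barcode alternatives, and the lists of imprinted and neuron-type cytoskeleton genes, were added after the data had been seen. Some genes counted among the results are not reported here by name.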

Additional observations from a re-analysis of the deposited data

Results flagged for a closer look

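Of the 20 genes called between the glands in mesenchyme and in epithelium, 4 had opposite directions in the tissues, which was seen in 1 library per group and not tested; 3 of them are given here. Fam150b, which encodes an ALK ligand, stood at 3.51 CPM in submandibular and 53.7 CPM in parotid mesenchyme but at 367 and 32.6 CPM in the epithelia, so its log2 ratios differed by −7.43 (mesenchyme minus epithelium). Tmem59l stood at 14.8 and 77.1 CPM in mesenchyme and at 57.1 and 10.1 CPM in epithelium, a difference of −4.88. Itm2a, a membrane protein gene on the X chromosome, stood at 2100 and 544 CPM in mesenchyme and at 53.3 and 187 CPM in epithelium, a difference of 3.76. Xist had the same directions in these tissues, so for Itm2a sex and gland cannot be told apart.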

How the results depend on the processing

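Against 127 genes higher in submandibular mesenchyme and 119 genes higher in parotid mesenchyme, a minimum of 20 CPM gave 307 and 220, a minimum of 100 CPM gave 60 and 66, a limit of 1.5-fold gave 272 and 269, and one of 3-fold 72 and 67. Under the other settings run, the counts stayed within 1.5 times: 111 and 139 with TMM scaling, which moved the median log2 ratio of all genes from −0.04 to −0.15, 188 and 137 with haemoglobin, mitochondrial and ribosomal genes out of the totals, 142 and 117 without barcodes holding markers of other classes, and 121 and 113 under a stricter cell filter (1000 genes, 5% mitochondrial UMIs). The stricter filter kept 1350 of the 3324 submandibular but 2794 of the 3361 parotid cells. Of 105 called genes named, each setting that redefined the cells or the scale reversed 0 and ended 0 to 8 calls. Gli3 was at 1.13 and Ldb2 at 0.98 (log2) with TMM scaling, Epha3 at −0.96 and Tgfb2 at 0.92 with the stricter cell filter, and Fstl1 at −0.99 among Y-positive cells, all not called there. Epha7 was at 0.89 with TMM scaling and 0.69 in thinned cells, also not called. Creb3l1, Efnb2, Nid2, Igfbp7, Phlda2, Bambi, Rtn1 and Fam150b stayed beyond 2-fold but fell under 50 CPM in at least 1 setting; the cause was not tested. Syndig1 moved from 3.33 to 2.72 with the stricter filter. No paired analysis was possible because each group has 1 library and no result comes from a test. Depth limits the ratios of genes with few UMIs on a side, such as Pou3f3, which moved from −11.19 to −7.56 among Y-positive cells.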

Other observations

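The called genes among imprinted genes, a list put together after the data had been seen, lay on the submandibular side. Of 57 in the files 21 reached 50 CPM, 14 were called higher in submandibular and 0 in parotid mesenchyme, and by a mean of 50 CPM 11 of 18 were called, where 5.48% of all genes were. Cdkn1c, a cyclin-dependent kinase inhibitor, stood at 10206 CPM in submandibular and 1747 CPM in parotid cells, H19 at 1243 and 465 CPM, Mest at 1651 and 669 CPM, Usp29, a neighbour of Peg3, at 102 and 11.9 CPM, and Kcnq1ot1 at 726 and 139 CPM. Ndn (248 and 197 CPM) was not called. Nnat (400.1 and 496 CPM) and Cd81 (670 and 803 CPM), with the higher level in parotid cells, were not called either. In the epithelia Cdkn1c stood at 433 and 545 CPM, H19 at 263 and 378 CPM and Mest at 153 and 304 CPM, while Meg3 was higher in the submandibular library in both tissues.

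The called genes among cytoskeletal genes typical of neurons, also listed after the data had been seen, lay on the parotid side. Of 28 genes 16 reached 50 CPM, 0 were called higher in submandibular and 9 in parotid mesenchyme, where 3.65% of all genes were, and by the mean rule 7 of 13 were called, where 5.48% of all genes were. Gap43, a growth-cone protein gene, stood at 42.4 and 145 CPM, the neurofilament gene Nefl at 111 and 278 CPM, the tubulin genes Tubb2b at 81.5 and 297 CPM and Tuba1a at 1010 and 2283 CPM, and Dnm3 at 30.6 and 123 CPM. Dcx, under the minimum, went the other way at 13.2 against 0.969 CPM. Marcks (393 and 418 CPM) and Map1b (347 and 398 CPM) were not called. The part of cells of another class in these values was not tested.

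Genes of the X chromosome other than Xist and Tsix were called in 7 of 104 cases by the mean rule (6.73%), all 7 higher in submandibular cells, against 5.43% of autosomal genes in either direction. With 50 CPM in the higher library, 10 were called higher in submandibular and 2 in parotid cells, the latter Maoa (20.2 against 51.9 CPM) and Zcchc18 (21.9 against 52.4 CPM). Nrk, an X-linked kinase gene, was at 265 against 31.9 CPM.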
